A study of Mus musculus with 14 samples.

Results

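Fetal liver was compared between embryonic day 13.5 (E13.5) and embryonic day 14.5 (E14.5) on 2 tissue sections from untreated wild-type mice that carried no engineered allele and were purchased from Jackson laboratory. Spots under tissue with at least 1000 detected genes were taken, which gave 491 spots at E13.5 and 854 spots at E14.5. These 1345 spots are part of 15985 passing spots in the 14 sections of the series, and every in-tissue spot of both livers passed. Gene expression was measured with the Visium spatial assay, in which short probe pairs for each gene are captured and counted on a grid of barcoded spots, each covering a small group of cells. Tissue was fixed in formalin for 3 days, embedded in paraffin and sectioned, and embryonic age was set by a single overnight mating. There was 1 section per stage, and the labels name neither the embryo nor the litter, so that a difference between the stages cannot be told apart from a difference between embryos, litters, blocks or slides. No p was computed, and all intervals below cover counting error only.

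The fetal liver is the main site of blood formation in the mouse embryo at these ages. It is colonized by blood-forming stem and progenitor cells, and most of its cells are erythroblasts that mature around a central macrophage in structures called erythroblastic islands. The first red cells come from the yolk sac and use embryonic globins, while erythroblasts made in the liver use adult globins. At the same time hepatoblasts, the common precursors of hepatocytes and bile duct cells, begin to secrete plasma proteins and later acquire the enzymes of the urea cycle, gluconeogenesis and drug metabolism.

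Both sections carried hepatocyte marker genes and globins. Alb, the main plasma protein of hepatocytes, and Afp, its fetal relative, were counted in 100% of the spots of both livers, and Hbb-y, an embryonic beta-type globin, in 98.8% of the E13.5 spots and 74.1% of the E14.5 spots. The 6 hepatocyte genes Alb, Afp, Apoa1, Apoa2, Ttr and Trf took at least 0.583% of the unique molecular identifiers (UMIs, the counted molecules) of every E13.5 spot and 1.11% of every E14.5 spot. Adult-type and embryonic alpha and beta globins together took 19.9% of UMIs in each liver. In total 38333002 UMIs were counted at E13.5 and 56182915 at E14.5, with a median of 75701 and 64102.5 per spot.

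Counts were summed over the spots of each section and scaled to 1000000 counts per section (CPM), and the level at E14.5 was divided by the level at E13.5 for the 12776 genes with at least 50 counts over both sections. The stages were much alike. The median log2 ratio over all tested genes was -0.08, and the 5th and 95th percentiles were -0.81 and 0.56. At E14.5, 185 genes (1.45% of those tested) were at least 2-fold higher and 367 (2.87%) were at least 2-fold lower, 4.32% in either direction. With median-of-ratios size factors in place of totals the split was 225 higher and 287 lower. Most of these genes were scarce. Among the 8451 genes that reached 10 CPM in either section, 52 were 2-fold higher and 49 were 2-fold lower. Of the 52, 19 belonged to the lists of hepatocyte plasma proteins, hepatocyte metabolism, complement and coagulation, or iron handling, which held 81 of the 8451 genes. Of the 49, 5 belonged to the mesenchyme or mesothelium lists and 3 were embryonic globins, lists that held 18 and 3 of the 8451 genes. The lists were chosen with earlier results of these data known.

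**Figure D1:**
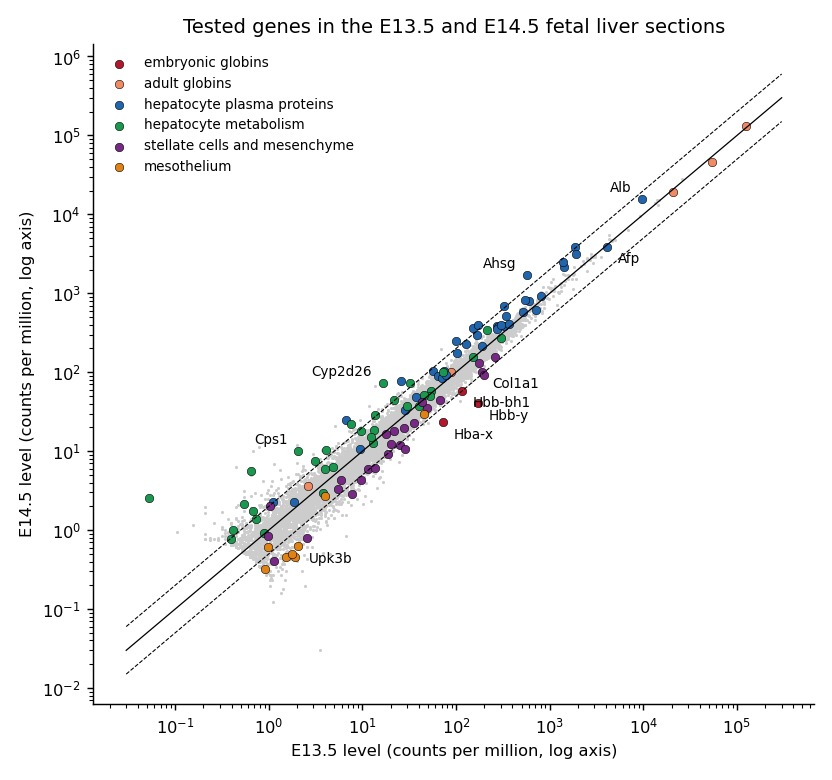
Level of each tested gene in the E13.5 section (x axis) and in the E14.5 section (y axis), both in CPM on log axes, with the line of equal levels and dashed lines at a 2-fold difference. Embryonic globins (Hbb-y 170 and 40.5 CPM) and mesothelial genes lie below the line, adult globins lie on it, and hepatocyte genes such as Ahsg (577 and 1709 CPM) lie above it.

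The genes that were lower at E14.5 depended on where spots lay. A spot was called interior when all 6 of its neighbours on the hexagonal grid were also used, which held for 316 spots at E13.5 and 592 at E14.5. On interior spots 188 genes were 2-fold higher and 187 were 2-fold lower, where all spots gave 367 lower. Of the 367 genes, 261 kept 50 counts on interior spots and 160 of them were still 2-fold lower, against 149 of 163 for the genes that were higher. A small patch of the E13.5 section held genes of other organs. There, 16 spots had at least 3 counts of Myh6, a heart muscle myosin, and Stmn2, a neuronal gene, summed, and no E14.5 spot did. Without these spots, a choice made after seeing the data, 187 genes were 2-fold higher and 296 were 2-fold lower.

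The only other fetal livers in the series came from matings of C1qa heterozygous mice, and all were labelled E14.5. Of them, 2 were wild type, numbered 2 and 4 after their litters, and they serve here as a yardstick for how far sections given the same age can lie apart. They differ from the purchased livers in mice and gene table, and were restricted to spots with at least 0.5% of UMIs from the 6 hepatocyte genes (2190 of 2320 and 241 of 806 spots). The list of sex-linked genes summed to 87.8 CPM at E13.5 and 127 CPM at E14.5, against 0.103 CPM in wild-type 2 and 0.0604 CPM in wild-type 4. Whether the livers differ in sex was not tested. Over the 12165 genes shared with them, the median absolute log2 ratio was 0.68 between wild-type 2 and wild-type 4 and 0.23 between E14.5 and E13.5. The signed median of wild-type 2 over wild-type 4 was -0.52, so that most genes were lower in wild-type 2 and part of the 0.68 is a shared shift. Median UMIs per used spot were 8876.5 in wild-type 2 and 68086 in wild-type 4. Of these genes, 7.52% were at least 2-fold higher and 21.8% at least 2-fold lower in wild-type 2 than in wild-type 4. Among the genes 2-fold higher at E14.5, 126 of the 175 measured in the cross were 2-fold higher in wild-type 2 than in wild-type 4 and 6 were 2-fold lower. Among those 2-fold lower at E14.5, 263 of 349 were 2-fold lower in wild-type 2 and 1 was 2-fold higher. Between the knockout livers of these litters 77 of the 175 genes were 2-fold higher in knockout 2 than in knockout 4 and 30 were 2-fold lower (against 395 and 3042 of all 12166 genes measured there), and 292 of the 349 were 2-fold lower. The sex-linked list summed to 150 CPM in knockout 2 and 0.0830 CPM in knockout 4. Cross values are given beside some of the genes described below.

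Embryonic globins were the clearest group on the lower side. Hbb-y was at 170 CPM at E13.5 (95% Poisson interval 166 to 174) and 40.5 CPM at E14.5 (38.8 to 42.2), 4.20-fold lower. Hba-x, the embryonic alpha-type zeta globin, was at 72.5 and 23.2 CPM, 3.12-fold lower. Hbb-bh1, the second embryonic beta-type globin of the yolk sac lineage, was at 116 and 57.6 CPM, 2.01-fold lower. All 3 tested members were thus past 2-fold, against 2.87% of all genes, but Hbb-bh1 only just. Its log2 ratio was -1.01, and -0.94 with TMM factors, -0.93 with median-of-ratios factors and -0.84 after thinning to 5000 UMIs per spot, where 2 of 3 remained past 2-fold. The fourth, Hbb-bh2, had 16 and 19 counts and was not tested. The promoters of these genes are shown beside that of the adult gene Hbb-bs, which did not move with them, as the 150 bases before the annotated RefSeq start in build GRCm38.p6 (the mm10 assembly), read 5′ to 3′ on the strand of the gene. The windows lie at chr7:103853208-103853357 on the minus strand for Hbb-y, chr11:32276450-32276599 on the plus strand for Hba-x and chr7:103827929-103828078 on the minus strand for Hbb-bs. Of 6 genes looked up for this and the next set, 5 had an entry. Capitals mark 4 motifs on either strand, which do not overlap each other in these windows. They are CCAAT (the CCAAT box), CACCC (the core of sites bound by Klf1-type factors), AGATAA (bound by Gata1-type factors) and TATAAA (the TATA box).
Hbb-y: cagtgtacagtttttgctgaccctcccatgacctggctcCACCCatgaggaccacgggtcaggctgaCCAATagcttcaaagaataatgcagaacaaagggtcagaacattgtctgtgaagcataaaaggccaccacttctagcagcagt
Hba-x: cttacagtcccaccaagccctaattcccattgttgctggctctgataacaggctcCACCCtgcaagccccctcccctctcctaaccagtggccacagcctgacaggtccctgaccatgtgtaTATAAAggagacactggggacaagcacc
Hbb-bs: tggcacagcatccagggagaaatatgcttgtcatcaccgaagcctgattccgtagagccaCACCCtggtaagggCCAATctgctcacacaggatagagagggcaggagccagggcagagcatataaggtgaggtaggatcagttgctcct
CACCC was found in all 3 windows and in 37.4% of the 32851 windows of the same length before all annotated starts. CCAAT was found before Hbb-y and Hbb-bs, 83 and 76 bases before the start, and in 24.5% of all windows. TATAAA was found 28 bases before the annotated start of Hba-x and in 7.57% of all windows. Only this exact form was searched. The Hbb-y window holds CATAAA and the Hbb-bs window TATAAG, which differ from it in the first and the last base. AGATAA was in none of the 3 windows and in 5.65% of all. Only this form of the Gata1-type site was searched, and the Hba-x window holds TGATAA, which differs in its first base.

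The embryonic globins were spread over both sections rather than held by a few spots. Per spot, the 10th, 50th and 90th percentiles of Hbb-y were 36.3, 110 and 378 CPM at E13.5 and 0, 26.4 and 93.1 CPM at E14.5, so that 6.67% of the E14.5 spots lay above the E13.5 median. For Hbb-bh1 this share was 12.9%. To compare spots at equal depth, each was thinned to 5000 UMIs, which left out 1 spot per section. After thinning, Hbb-y was found in 45.3% of the E13.5 spots and 17.2% of the E14.5 spots. Neighbouring spots resembled each other in summed embryonic globin at E13.5 (Moran's I, 0.20 after thinning, where 0 means no spatial order) more than at E14.5 (0.02). On interior spots alone the log2 ratio of Hbb-y was -2.12, beside -2.07 on all spots. In the cross, Hbb-y stood at 21.5 CPM in wild-type 2 and 5989 CPM in wild-type 4, one below both purchased livers and the other far above them.

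Adult globins differed little. Hbb-bs, the main adult beta globin, was at 123686 CPM at E13.5 and 133231 CPM at E14.5, and Hba-a2, an adult alpha globin, was at 53999 and 46531 CPM. Hbb-bt was at 20794 and 19233 CPM, with log2 ratios of 0.11, -0.21 and -0.11 for the 3 genes. Hba-a1 was listed with 0 counts in both livers, and its values cannot be told apart from those of its near-identical copy Hba-a2. The minor alpha-like genes Hbq1b (87.7 and 99.9 CPM) and Hbq1a (2.63 and 3.58 CPM) were also within 2-fold. For every 100 counts of the 3 major adult globins there were 0.181 embryonic globin counts at E13.5 and 0.0609 at E14.5. This ratio was 0.0375 in wild-type 2 and 7.60 in wild-type 4.

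Hepatocyte plasma proteins were mostly higher at E14.5. The 40 genes of the list summed to 28063 CPM at E13.5 and 42669 CPM at E14.5, 1.52-fold higher. Of 39 tested, 37 had a ratio above 1, 9 were at least 2-fold higher (against 1.45% of all genes) and none was 2-fold lower, with a median log2 ratio of 0.51 beside -0.08 over all tested genes. Alb itself was at 9648 and 15594 CPM, 1.62-fold higher, while Afp was at 4104 and 3877 CPM, a log2 ratio of -0.08 (-0.09 to -0.07). The ratio of Alb to Afp counts was 2.35 at E13.5 and 4.02 at E14.5, which compares the stages and not the molecules of both genes, since probes differ in yield. Over spots the 10th and 90th percentiles of this ratio were 1.65 and 2.91 at E13.5 and 2.94 and 4.59 at E14.5, ranges that did not overlap. Alb and Afp are neighbours on chromosome 5, and their upstream sequences are shown since the pair parted between the stages. The windows lie at chr5:90460720-90460869 for Alb and chr5:90490564-90490713 for Afp, both on the plus strand, with the same motifs in capitals.
Alb: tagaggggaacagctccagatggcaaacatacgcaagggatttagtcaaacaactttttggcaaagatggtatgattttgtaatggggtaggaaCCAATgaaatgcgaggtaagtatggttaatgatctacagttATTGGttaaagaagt
Afp: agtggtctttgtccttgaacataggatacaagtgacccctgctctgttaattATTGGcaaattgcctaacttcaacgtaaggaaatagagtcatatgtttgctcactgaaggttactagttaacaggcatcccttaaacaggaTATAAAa
CCAAT was found on either strand at 56 and 15 bases before Alb and at 98 bases before Afp. TATAAA was found 7 bases before the annotated start of Afp. A match is a run of letters and not a shown binding site.

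Other secreted proteins went further than Alb. Ahsg, the fetal serum protein fetuin-A, was at 577 CPM at E13.5 and 1709 CPM at E14.5, 2.96-fold higher (log2 ratio 1.57, 1.55 to 1.59). Its 10th, 50th and 90th spot percentiles were 299, 499 and 932 CPM and then 854, 1425 and 2544 CPM, and 99.5% of the E14.5 spots lay above the E13.5 median. Apoa1, the core protein of high-density lipoprotein, was at 1858 and 3889 CPM, and 99.1% of the E14.5 spots lay above the E13.5 median. Kng2 (6.68 and 24.8 CPM), a kininogen, Itih4 (25.6 and 78.5 CPM), an inter-alpha-trypsin inhibitor heavy chain, and Apoh (100 and 251 CPM), a phospholipid-binding protein, were 3.72-fold, 3.06-fold and 2.50-fold higher. Trf, the iron carrier transferrin, was 1.64-fold higher (1915 and 3132 CPM). The only tested members with a ratio below 1 were Afp and Serpina6, the corticosteroid carrier (706 and 618 CPM). Between the wild-type cross livers the same genes lay further apart, with Ahsg at 8937 CPM in wild-type 2 and 217 CPM in wild-type 4, Apoa1 at 8304 and 1583 CPM, and Alb at 50737 and 6221 CPM. Both purchased livers fell between those values for all 3 genes.

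**Figure D2:**
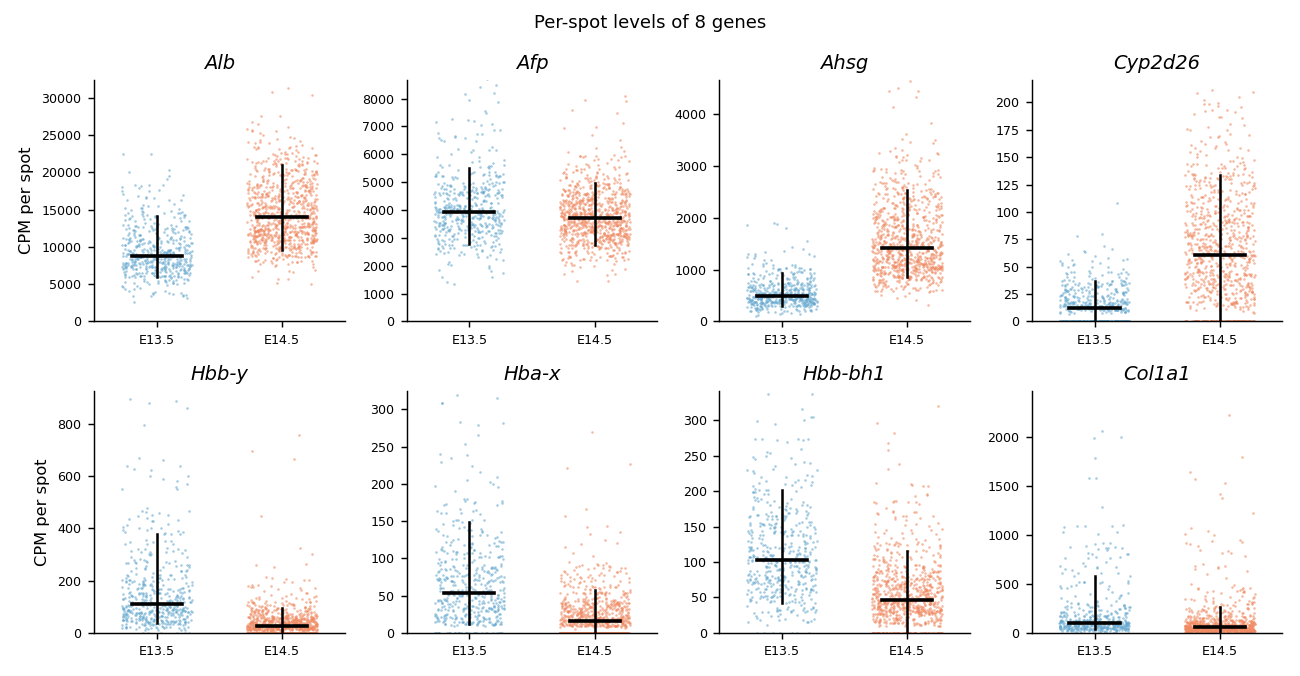
Level per spot (CPM) of 8 genes in the E13.5 and E14.5 sections, 1 point per spot, with the median as a bar and the 10th to 90th percentiles as a line (the highest 0.5% of spots lie above the axis). Spots of Ahsg and Alb sit higher at E14.5, those of Afp sit at like levels (medians 3937 and 3722 CPM), and those of the 3 embryonic globins and of Col1a1 sit lower.

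Genes of hepatocyte metabolism included the largest ratios of the comparison. Of 32 tested, 14 were at least 2-fold higher (against 1.45% of all genes) and none was 2-fold lower. The median log2 ratio was 0.78. Cps1, which starts the urea cycle, was at 2.06 CPM (79 counts) at E13.5 and 10.0 CPM (564 counts) at E14.5, 4.87-fold higher. Cyp2d26, a cytochrome P450 enzyme, was at 16.5 and 73.0 CPM, 4.42-fold higher, and Mat1a, which makes the methyl donor of the adult liver, was at 7.54 and 21.8 CPM, 2.90-fold higher. Uox, the urate oxidase of rodents, was at 4.07 and 10.3 CPM. At still lower levels Fbp1, an enzyme of gluconeogenesis, had 25 and 314 counts, 8.57-fold higher. Cyp3a11, a drug-metabolizing P450, had 2 and 144 counts, a log2 ratio of 5.62 whose counting interval ran from 3.74 to 8.68. Other enzymes of the same pathways followed less or not at all. Arg1 of the urea cycle and Pck1 of gluconeogenesis were higher but within 2-fold, with log2 ratios of 0.89 and 0.91. Otc (12.4 and 15.0 CPM), Asl (53.5 and 57.3 CPM) and Ass1 (3.83 and 2.95 CPM) of the urea cycle were also within 2-fold. So was Cat, the peroxide-degrading catalase, which is in neither pathway (304 and 274 CPM). Several enzymes of the mature liver were below the test minimum in both sections, among them Cyp7a1 (15 and 24 counts), Cyp2e1 (2 and 10 counts), Tat (8 and 16 counts) and G6pc (3 and 2 counts).

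The transcription factors that control these genes were not higher with them. Of 19 tested hepatocyte regulators, 16 had a ratio below 1, the median log2 ratio was -0.35, and the summed level was 344 CPM at E13.5 and 293 CPM at E14.5. Hnf4a, a central regulator of hepatocyte identity, was at 55.8 and 54.3 CPM, and Cebpa, a driver of metabolic genes, was at 42.7 and 33.4 CPM. Foxa3 was at 24.3 and 18.5 CPM and Onecut2 at 16.7 and 11.7 CPM. The 3 members above 1 were Creb3l3 (29.3 and 29.9 CPM), Nr1i2 (11.5 and 12.7 CPM) and Nr1i3, a receptor that switches on drug-metabolizing enzymes, with 15 and 69 counts and a log2 ratio of 1.65. In the cross the median of this list between wild-type 2 and wild-type 4 was 0.85, the opposite sign to the purchased stages.

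Complement and coagulation genes were mostly higher at E14.5, and iron genes were mixed. Of 23 tested complement and coagulation genes, 7 were 2-fold higher (against 1.45% of all genes) and none 2-fold lower, with a median of 0.57. F11, a coagulation factor, was at 7.49 and 22.2 CPM, and F13b, a subunit of another, at 18.3 and 39.3 CPM. C8b, part of the membrane attack complex, was at 16.3 and 32.5 CPM, just under 2-fold. Of 15 tested iron genes, 4 were 2-fold higher, against the same 1.45%. In this list 8 had a ratio above 1 and 7 below 1, with a median of 0.10. The summed level of the iron list was 6264 CPM at E13.5 and 5682 CPM at E14.5, and 13.3% of the E14.5 spots lay above the E13.5 median. Cp, the iron-oxidizing ceruloplasmin, had 77 and 673 counts, a log2 ratio of 2.58. Hamp, the hormone hepcidin, had 6 and 66 counts, a ratio of 7.51 with a log2 interval of 1.71 to 4.41. The ferritin chains Fth1 (3022 and 2909 CPM) and Ftl1 (2881 and 2386 CPM) were within 2-fold.

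Among the 12 genes with the highest ratios at 20 CPM or more were some outside the lists. Nrn1, which encodes neuritin, headed them at 13.7 and 66.2 CPM, 4.82-fold higher, and 90.3% of the E14.5 spots lay above its E13.5 median. Apcs, the serum amyloid P component, was at 5.11 and 20.9 CPM, Il1rn, an inhibitor of interleukin-1 signalling, at 6.99 and 23.9 CPM, and Slc38a3, a glutamine transporter, at 11.9 and 37.5 CPM. Pzp, a protease inhibitor of plasma, was at 69.3 and 200 CPM. These 5 genes were also higher in wild-type 2 than in wild-type 4, as in Nrn1 at 190 and 11.4 CPM. Zfand4, a zinc finger gene at 9.31 and 25.1 CPM, was at 12.8 and 13.1 CPM in the cross and so differed between the stages and not between those livers.

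Genes of connective tissue were lower at E14.5. Of 25 tested genes of stellate cells and mesenchyme, 9 were at least 2-fold lower (against 2.87% of all genes) and none was 2-fold higher. Of the 25, 24 had a ratio below 1, with a median log2 ratio of -0.72. Their summed level was 1239 CPM at E13.5 and 755 CPM at E14.5. Col1a2, a chain of type I collagen, was at 201 and 92.4 CPM, 2.17-fold lower, and Col1a1, its partner chain, at 187 and 101 CPM, 1.85-fold lower. Col3a1, the type III collagen, was at 262 and 154 CPM. Ptn, a heparin-binding growth factor, was at 28.4 and 10.8 CPM, Pdgfrb, a receptor of pericytes and stellate cells, at 13.5 and 6.12 CPM, and Hand2, a transcription factor of liver mesenchyme, at 24.9 and 12.1 CPM. Lrat, the enzyme that stores vitamin A in stellate cells, was the exception with 39 and 113 counts, a log2 ratio of 0.98. Several of the 12 genes with the lowest ratios at 20 CPM or more also build or fold matrix, including Serpinh1, the collagen chaperone (110 and 42.6 CPM), Fbn2 (29.1 and 10.3 CPM), Mfap2 (30.4 and 10.9 CPM) and Col5a2 (50.2 and 23.1 CPM). Nnat, an imprinted gene (26.2 and 8.86 CPM), Asb4 (35.1 and 14.2 CPM) and Cpm (26.6 and 11.7 CPM) were among them as well, with 1 feature that the gene table marks as deprecated.

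These genes were concentrated in bands of spots rather than spread evenly. Spots at the edge of the tissue held 1.89 times the interior level of the mesenchyme list at E13.5 and 1.57 times at E14.5 without thinning, and Moran's I was 0.41 and 0.45 after thinning. The 90th percentile of Col1a1 over spots was 581 CPM at E13.5 and 261 CPM at E14.5, far above the medians of 100 and 57.6 CPM. Edge spots made up 175 of 491 spots at E13.5 and 262 of 854 at E14.5. Interior spots still gave lower levels at E14.5, with a list median of -0.54 and a log2 ratio of -0.64 for Col1a1. On these spots Col1a2 (-0.87), Col5a2 (-0.93), Pdgfrb (-0.87) and Hand2 (-0.71) were no longer past 2-fold. Whether the plane of section added to the difference was not tested. In a summed section fewer cells of a type cannot be told apart from less RNA in each cell, which holds for every group here.

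**Figure D3:**
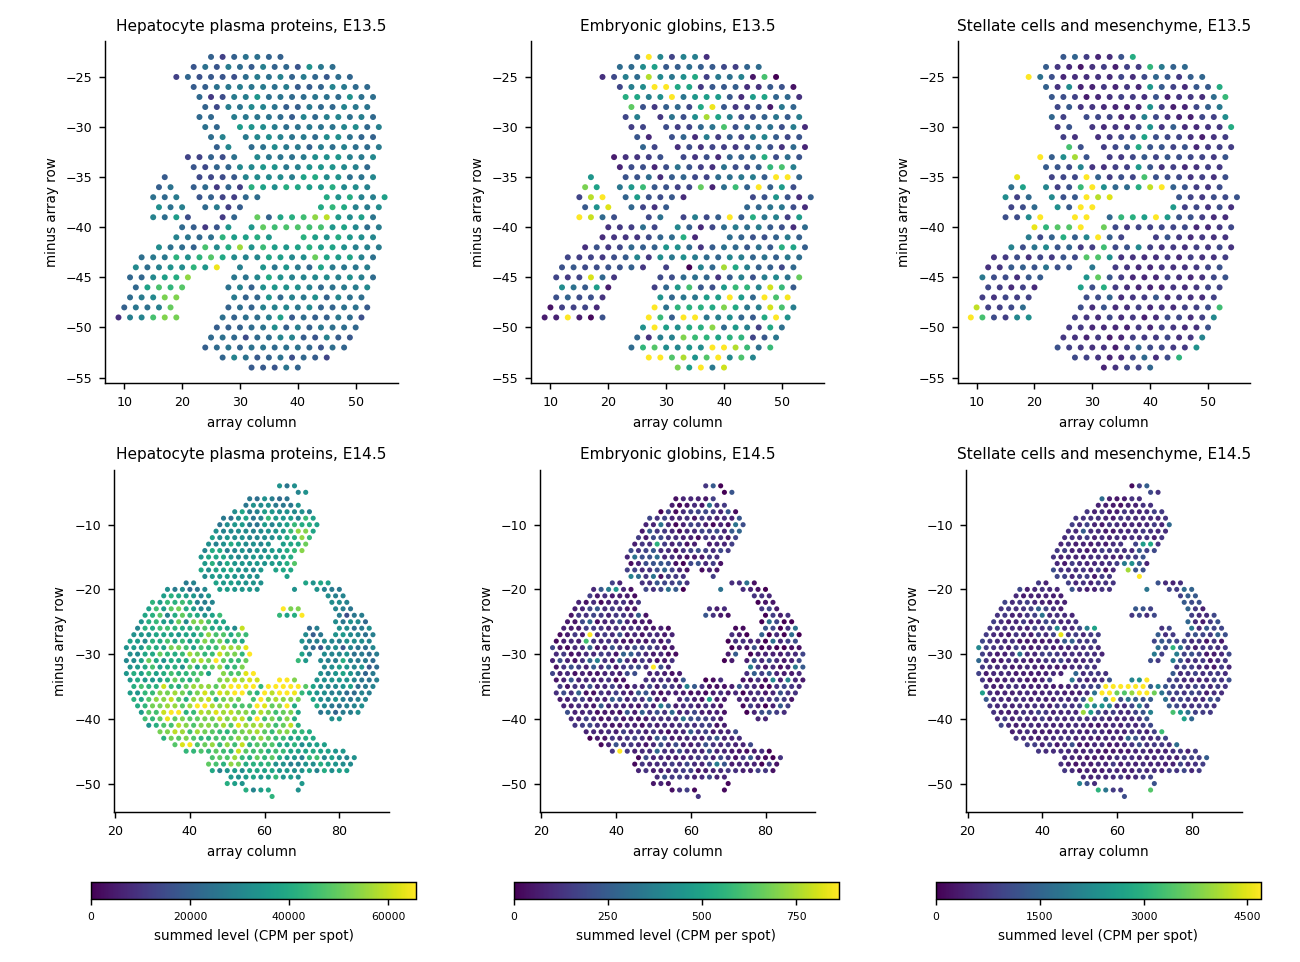
Maps of the E13.5 (top) and E14.5 (bottom) sections on the array grid (array column against array row), 1 point per spot, coloured by the summed level in CPM of hepatocyte plasma proteins, embryonic globins, and stellate and mesenchyme genes, with colours capped at the 98th percentile of all spots. Plasma protein spots are brighter at E14.5 (medians 26329 and 38632 CPM), embryonic globin spots are brighter at E13.5 (289 and 103 CPM), and mesenchyme genes gather in a band and along edges in both.

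Hepatocyte genes varied within the E14.5 section as well. It held 2 connected pieces of at least 30 spots, with 674 and 167 spots, and 13 spots in smaller ones. Alb was at 16150 CPM in the larger and 12454 CPM in the smaller piece, and Ahsg at 1806 and 1169 CPM. Both pieces were above the E13.5 section, which was a single piece, in both genes. Hbb-y was at 39.7 and 45.5 CPM, below the E13.5 section in both. Moran's I of the plasma protein list was 0.54 at E13.5 and 0.69 at E14.5 after thinning.

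Mesothelial genes, which mark the epithelium that covers the liver, were scarce and lower at E14.5. All 8 tested members had a ratio below 1, and the median log2 ratio was -1.61. Of them 5 were at least 2-fold lower, against 2.87% of all genes. The list was at 1.65 times the interior level on edge spots at E13.5 and 1.45 times at E14.5 after thinning. Upk3b, a defining marker of mesothelium, had 79 and 35 counts, Wt1, a transcription factor of mesothelium, 67 and 28 counts, and Crb2 73 and 26 counts. Podxl, which vessels also express, was the one member above 10 CPM (45.6 and 29.2 CPM). Bile duct markers were also low. Krt7, a duct keratin, had 189 and 79 counts and Sox9, a factor of duct progenitors, had 154 and 99 counts, and they were 2 of the 3 members of the hepatoblast and biliary list past 2-fold, with Krt19 (35 and 18 counts), which is also a mesothelial gene. That list had 14 tested members, and 2.87% of all genes were 2-fold lower. On interior spots Sox9 (-0.76) and Krt19 (-0.41) were no longer past 2-fold. Dlk1, a surface protein of hepatoblasts, was at 1221 and 1033 CPM and Gpc3, another, at 344 and 331 CPM.

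Fetal growth genes were mostly lower at E14.5, and 2 of 20 tested were 2-fold lower, against 2.87% of all genes. Lin28a, an RNA-binding protein of early developmental stages, was at 10.9 and 3.92 CPM, 2.78-fold lower, and Hmga2, a chromatin protein of fetal growth, at 19.9 and 8.05 CPM, 2.47-fold lower. The imprinted genes Peg10 (98.9 and 51.3 CPM), Plagl1 (144 and 74.7 CPM) and Cdkn1c (255 and 142 CPM) were close to but within 2-fold, and Igf2, the main fetal growth factor, was at 616 and 636 CPM. Lin28b, the paralog of Lin28a, was at 33.0 and 33.4 CPM. The list median was -0.39. The hypoxia and glycolysis list had a median of -0.29 with 16 of 18 ratios below 1 and none past 2-fold, near the 4.32% of all genes. The median over all tested genes was -0.08. After thinning, the list median was -0.06 over the 13 members still tested. Ldha, a lactate dehydrogenase, was at 99.6 and 62.3 CPM. In the stress list 3 of 16 tested genes were 2-fold lower, against 2.87% of all genes. All were heat shock genes: Hspa1b had 256 and 47 counts, Hspa1a 57 and 13, and Hspb1 35 and 17. The log2 ratio of Hspb1 was -1.59, and turned to 0.20 after thinning. The immediate early genes Fos (35 and 40 counts) and Jun (423 and 401 counts) were within 2-fold.

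Erythroid genes differed by less than 2-fold between the stages, as most genes did. No member was past 2-fold among 12 genes of heme synthesis, 20 of the red cell membrane, 16 erythroid regulators and 14 genes of late erythroid maturation. That is near the 4.32% of all genes, and near the 52 higher and 49 lower of the 8451 genes at 10 CPM. The median log2 ratios of these lists were 0.23, 0.16, 0.02 and 0.12. Most heme and membrane genes were somewhat higher at E14.5, with ratios above 1 in 11 of 12 and 17 of 20. For the summed heme synthesis list 89.0% of the E14.5 spots lay above the E13.5 median and 62.6% above its 90th percentile. Within that range Tfrc, the transferrin receptor that feeds iron to erythroblasts, was at 1037 and 1404 CPM, and 94.0% of the E14.5 spots lay above its E13.5 median. Fech, which inserts iron into heme, was at 855 and 1196 CPM. Klf1, the factor that drives adult beta globin, was at 284 and 206 CPM, Gata1, the master erythroid factor, at 266 and 292 CPM, and Bcl11a, a repressor of embryonic globins, at 115 and 114 CPM. Mki67, a marker of dividing cells, was at 1096 and 1506 CPM, and 94.6% of the E14.5 spots lay above its E13.5 median, while Ube2c, which acts late in mitosis, was at 105 and 72.6 CPM. None of 22 mitosis and 22 replication genes was past 2-fold, which is also near the 4.32% of all genes.

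**Figure D4:**
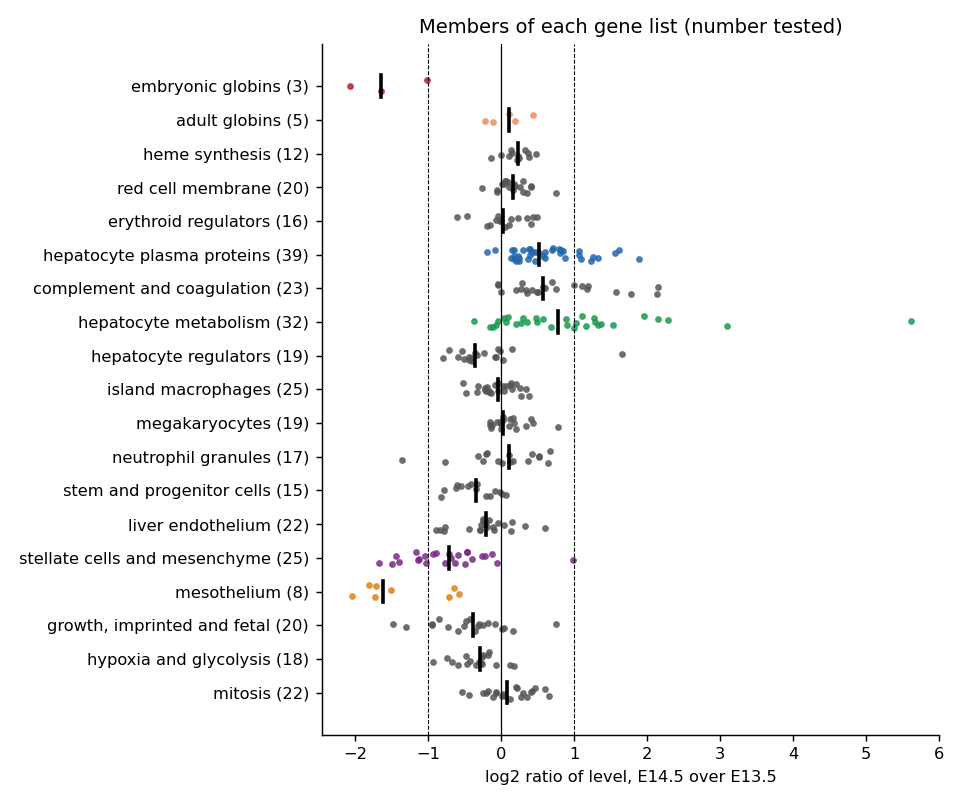
log2 ratio of level, E14.5 over E13.5, for the tested members of 19 gene lists (1 point per gene, number tested in parentheses, black bar for the median, dashed lines at 2-fold). Embryonic globins, mesothelium and mesenchyme lie to the left, plasma proteins and metabolic enzymes to the right, and erythroid, macrophage and megakaryocyte lists within 2-fold.

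Of 25 tested genes of island macrophages none was past 2-fold, near the 4.32% of all genes, with a median of -0.04. C1qa, a chain of complement C1q, was at 64.0 CPM (61.5 to 66.6) at E13.5 and 62.2 CPM (60.2 to 64.3) at E14.5, and 50.5% of the E14.5 spots lay above the E13.5 median. Vcam1, the adhesion molecule of island macrophages, was at 57.5 and 59.2 CPM, Timd4, a phagocytic receptor, at 18.1 and 16.2 CPM, and Marco, a scavenger receptor, at 74.1 and 96.7 CPM. Pf4, a platelet granule protein, was at 532 and 531 CPM, and none of 19 megakaryocyte genes was past 2-fold, also near that share. Megakaryocyte genes were lower at the edge, at 0.542 and 0.759 times the interior level. Neutrophil granule genes had a median of 0.11, with S100a8 at 117 and 167 CPM and Mpo, the myeloperoxidase, at 107 and 93.6 CPM. Of 17 tested only Mmp9 was past 2-fold (138 and 79 counts), near the share of all genes. Stem and progenitor genes had a median of -0.35 and endothelial genes -0.21, with no member past 2-fold in either, again near the share of all genes. Cd34 was at 31.4 and 18.4 CPM and Kit, the receptor for stem cell factor, at 48.9 and 51.3 CPM. Plvap, a fetal endothelial protein, was at 68.9 and 40.4 CPM and Lyve1, a receptor of sinusoids, at 12.3 and 6.64 CPM.

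Some scarce lineage genes stood out by ratio. Of 7 tested B-lymphoid genes 4 were 2-fold higher, against 1.45% of all genes, namely Igll1 (10 and 70 counts) and Cd79a (25 and 108 counts), both parts of the early B-cell receptor, Rag1 (18 and 57 counts), which cuts antigen receptor genes, and Pax5 (14 and 44 counts), the B-cell commitment factor. Cd79b, on the other hand, was at 6.37 and 6.02 CPM. Mcpt8, a protease of basophils, had 44 and 383 counts, while Cpa3, a protease of mast cells and basophils, had 83 and 148 counts. Cx3cr1, a receptor of early macrophages and monocytes, had 266 and 126 counts, and Ly6c2, a marker of inflammatory monocytes, had 68 and 230 counts, a log2 ratio of 1.21 that turned to -0.10 after thinning. These were the only 2 of 13 tested monocyte and dendritic cell genes past 2-fold, beside 4.32% of all genes. None of 20 tested genes of lipid and sterol synthesis and none of 3 tested T and NK cell genes was past 2-fold, near that share.

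Markers of other organs and of sex were checked in both livers. Myh6 had 134 counts at E13.5 and 0 at E14.5, and Stmn2 had 173 and 28 counts, of which the 16 spots named above held 253 of 307 E13.5 counts of both genes. Myl7, an atrial muscle gene, was at 12.3 and 2.33 CPM, and at a log2 ratio of -1.86 without those spots it was still past 2-fold. Of 4 tested gut and pancreas markers 3 were 2-fold lower, against 2.87% of all genes. They were Barx1 (73 and 25 counts), Vil1 (67 and 41 counts) and Cpa1 (88 and 59 counts). The adrenal marker Cyp11a1 was 2-fold higher, with 8 and 43 counts. Other gut, lung and endocrine markers, Pdx1, Sox2, Tff2, Nkx2-1 and Sftpb, were at 0 in both livers. The Y-linked genes Ddx3y (1074 and 2090 counts, a log2 ratio of 0.41), Eif2s3y (34.8 and 58.5 CPM), Uty (14.5 and 18.3 CPM) and Kdm5d (10.5 and 13.1 CPM) were counted in both livers and none was past 2-fold. Xist and Tsix were listed at 0 in both, which cannot be told apart from genes that the assay does not measure. These 0 counts do not tell the sex of an embryo.

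**Figure D5:**
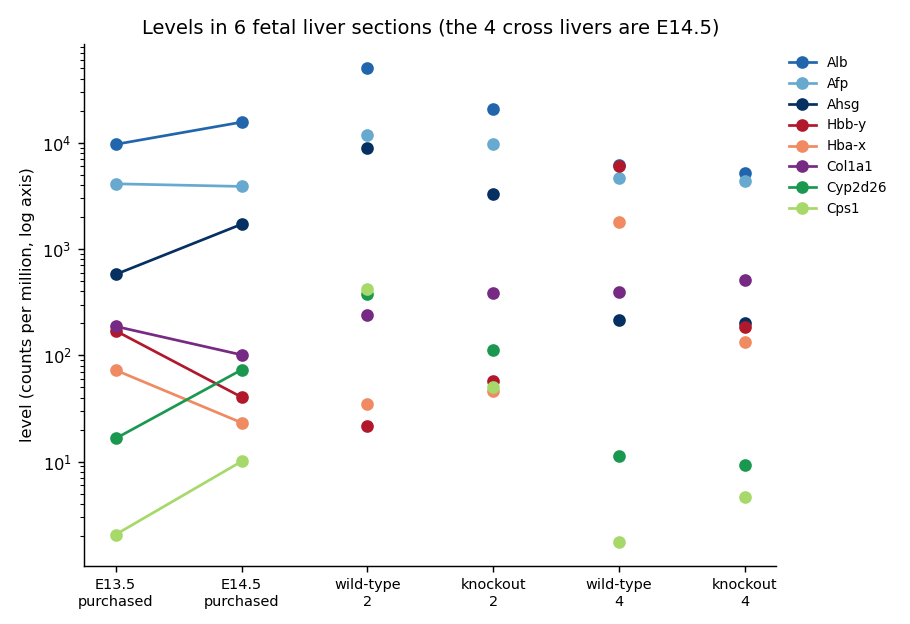
Level (CPM, log axis) of 8 genes in the purchased E13.5 and E14.5 sections, joined by lines, and in the 4 cross livers, all labelled E14.5, as points. Ahsg spans 202 to 8937 CPM over the cross livers, beside 577 and 1709 CPM in the purchased ones, and Hbb-y spans 21.5 to 5989 CPM beside 170 and 40.5 CPM.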

How the data were processed

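The deposited matrices held raw UMI counts per gene and spot, made by the authors with 10x Genomics software (Space Ranger, mm10, per the submitters' processing notes; version not given in the sources used here), without normalization. The deposited spot and gene tables held other values: array positions, the in-tissue mark and gene names. They listed 32589 features for the purchased livers, of which 304 are marked deprecated (0.436% of UMIs in each liver), and 19465 for the cross.

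Spots with at least 1000 genes were summed per section and scaled to CPM, and genes with 50 counts over both sections were tested for size only. Called means 2-fold or more. A count of 0 set against counts was read as 3. Ratio intervals are exact 95% Clopper-Pearson limits for a pair of Poisson counts, and levels carry exact Poisson limits. Both cover counting error only, and spots are not replicates. Spot barcodes are fixed by the array, and 296 were used in both sections. Python 3.11.15, numpy 2.4.6, pandas 2.3.3 and scipy 1.17.1 were used, with scaling factors from edgeR 4.0.16 and DESeq2 1.42.0 in R 4.3.3 as alternatives. The steps were tested on simulated data.

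The comparison and the 34 gene lists were chosen with earlier results of these data known. Named genes followed a rule: Alb, Afp and Hbb-y, the 12 highest and 12 lowest ratios at 20 CPM or more, the 5 largest gains and losses in CPM, all globins and sex-linked genes, and per list at most 4 genes by ratio and 2 by level at 10 CPM or more. Genes named outside it were chosen after their values were seen, as were the connected pieces of tissue. They are Apoa2, Ttr, Serpina6, Otc, Asl, Ass1, Arg1, Pck1, Col1a1, Gpc3, Cdkn1c, Lin28b, Bcl11a, Vcam1, Timd4, Mpo, Cd79b, the interferon-induced genes and every gene under 10 CPM in both livers. Near-identical copies (globins, histones) cannot be told apart with certainty. Symbols listed more than once were read from the feature with more counts. Medians were given for lists with 5 or more tested members, and for the 3 embryonic globins only in the plot of lists. Alternatives were other scaling, count minimums, spot sets, thinning, fold limits and per-spot means. Some genes are not reported here.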

Additional observations from a re-analysis of the deposited data

How the results depend on the processing

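Direction was kept for every gene past 2-fold among the list members and named genes under every alternative except C9, Hspb1, Ly6c2 and Ugt1a1 after thinning to 5000 UMIs (-0.21, 0.20, -0.10 and -0.80 on the log2 scale). The counts of genes 2-fold higher and lower moved most with depth and with the cut-off, to 62 and 62 with at least 500 counts, 560 and 1391 with at least 1 count in each section, 81 and 93 after thinning, 575 and 1211 at a fold of 1.5, and 27 and 33 at a fold of 4. Interior spots gave 187 lower genes. TMM factors gave 223 and 291, and median-of-ratios factors 225 and 287, which moved the share of higher genes up from 185 of 552. Equal weight per spot gave 180 and 301. A list median was counted as moved by a limit drawn from the wild-type cross livers. The limit was the size of the list median of wild-type 2 over wild-type 4, divided by the square root of 2. These medians were 2.73 for plasma proteins, 2.68 for hepatocyte metabolism and -0.05 for heme synthesis. The first 2 lists could thus shift far without counting as moved. The heme synthesis median moved to 0.30 (TMM) and 0.31 (median-of-ratios). The endothelial median moved to -0.13 under both, to -0.18 over the total without hemoglobin and plasma proteins, and to -0.29 after thinning. The mast cell and basophil median was 0.24 under both factors, 0.19, 0.28 with 1 count in each section, -0.079 on interior spots and 0.17 with equal weight per spot. Larger shifts stayed under the limits of their lists. Hepatocyte metabolism went from 0.78 to 0.48 with at least 500 counts. After thinning, with fewer members tested, hepatoblast and biliary genes went from -0.31 to 0.09 and hepatocyte regulators from -0.35 to -0.14. Stem and progenitor genes then went from -0.35 to -0.16, and mesenchyme from -0.72 to -0.49. Without thinning, edge over interior of plasma proteins was 1.01 at E13.5 and 0.886 at E14.5, and Moran's I was 0.28 for island macrophages at E13.5 and 0.21 for neutrophil genes at E14.5. The causes were not tested. Using all in-tissue or all hepatocyte spots gave the main values, since every spot met both rules. With fewer than 5 members left no median was computed, as for mesothelium on interior spots. No paired analysis was possible because each stage had 1 section and the numbers in the labels belong to cross litters. Leaving out a replicate was not possible for the same reason.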

Other observations

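Among interferon-induced genes, which are in no list and were picked after seeing their values, levels were mixed. Isg15, an interferon-induced ubiquitin-like protein, was at 16.5 CPM at E13.5 and 4.13 CPM at E14.5, Ifi27 at 14.2 and 3.44 CPM and Oas1a at 2.90 and 0.819 CPM. Other interferon-induced genes did not share the size of this difference, with Bst2 at 57.5 and 34.1 CPM and Rsad2 at 2.40 and 2.62 CPM. Ifi27 was at 7.44 CPM in wild-type 2 and 5.98 CPM in wild-type 4.

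Among abundant genes the 5 largest losses in level included that of Actb, the cytoplasmic actin, at 1792 and 1139 CPM, and 0.820% of the E14.5 spots lay above its E13.5 median. Rack1, a ribosomal scaffold protein, was at 3531 and 2871 CPM. The histone genes Hist1h4m (14178 and 13110 CPM) and Hist1h2ah (25971 and 27937 CPM) have near-identical copies, so that their counts are uncertain. In the cross Actb was at 2498 CPM in wild-type 2 and 2559 CPM in wild-type 4.

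The C1qa knockout livers of the same litters also differed between litters. Ahsg was at 3283 CPM in knockout 2 and 202 CPM in knockout 4, and Hbb-y at 57.6 and 183 CPM. The ratio of Alb to Afp counts was 4.31 and 1.33 in wild-type 2 and 4, and 2.13 and 1.19 in knockout 2 and 4, beside 2.35 in the purchased E13.5 liver and 4.02 in the purchased E14.5 liver. Both livers numbered 4 and knockout 2 lay below the purchased E13.5 liver in this ratio, although all 4 cross livers are labelled E14.5. The age of the litters was not tested.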
